A study of Mus musculus with 5 samples.

Results

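The genes described here are the enzymes that write cytosine methylation into DNA (Dnmt1, Dnmt3a, Dnmt3b), the adaptor and related protein that steer the maintenance enzyme (Uhrf1, Uhrf2), the dioxygenases that begin its removal (Tet1, Tet2, Tet3) and 1 reader of the mark (Mbd2). They were chosen by name from a table of 23337 genes by symbol, and all 9 were found in it. The RNA came from mouse embryonic fibroblasts of strain 129Sv made immortal with SV40 T antigen, which inactivates p53 and the retinoblastoma protein. There were 2 libraries labelled KO, of genotype SIRT3 -/-, and 3 labelled WT, of wild type genotype. All 5 come from cells with the T antigen grown under normal conditions, and SIRT3 removes acetyl groups from mitochondrial proteins. Whether replicates were separate cultures is not labelled. The p-values here thus weigh the difference between groups against how far single libraries of a genotype lie apart, a spread that could be technical. A line can differ from another in more than the labelled gene, and with this design the line and the genotype cannot be told apart.

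DNMT1 copies the methylation of the parent strand onto the new strand after replication, and UHRF1 is the adaptor that recognizes the half-methylated site and brings DNMT1 to it. DNMT3A and DNMT3B set methylation on sites that had none. TET enzymes oxidize 5-methylcytosine, after which the mark is lost by repair or by dilution at division, and MBD2 binds methylated CpG and recruits the NuRD remodelling complex. In fibroblasts that divide, the maintenance pair is usually far more abundant than the de novo enzymes, while TET1 and DNMT3B are best known from embryonic stem cells.

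Levels are given as normalized read counts, in which each library's reads were scaled by its own size factor. Reads recovered from these values and summed over all genes came to 33473103 and 33579031 in KO and from 37396488 to 41758681 in WT. The lowest WT sum is that of replicate 2, whose scaling step is too near 1 to check. Of 13062 genes tested with limma on log2(normalized read count + 1), 65.3% were called at a Benjamini-Hochberg adjusted p under 0.05, with 32.6% higher and 32.6% lower in KO, so a call on its own sets no gene apart from the rest. Sirt3 transcript was not lower in the libraries labelled KO, at 200.4 and 216.8 normalized read counts against 169.7, 149.4 and 118.4 in WT. Totals per gene do not show whether a part of the transcript is missing, and directions are given between libraries as labelled. Of 12 fibroblast markers, 2 were higher and 6 lower in KO, and 3 were not called. Pdgfra, a growth factor receptor gene of fibroblasts, averaged 1255 normalized read counts in KO and 20013 in WT. The collagen gene Col3a1 was lower in KO too, at 8168 against 38821. Col1a2, another collagen gene, was higher, at 140860 in KO and 94084 in WT. Lum, another fibroblast marker, had at most 1.11 in any library.

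Among the 9 genes, 2 were called higher and 3 lower in KO, and 4 were not called (limma). The 2 that rose are the UHRF genes, and the 3 that fell are Dnmt1, Dnmt3a and Tet2. This is 5 of 9, beside 65.3% of all genes tested. The same 5 were called in the same directions by edgeR and DESeq2 on recovered reads, where 62% and 53.3% of all genes were called. They were also called from RPKM (63.1% of all genes), with the replicate number as a block (60.5%), without KO replicate 1 (60.8%), without KO replicate 2 (63%) and in the authors' deposited table (50.5%). The KO and WT libraries did not overlap for 6 of the 9, beside 75.4% of the genes tested. The median of the 9 log2 fold changes was -0.048, beside -0.0023 over the whole table, and none of the 9 differed as much as 2-fold, beside 13% of genes called at that size. In bulk RNA, fewer cells that express a gene and less RNA per cell cannot be told apart.

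**Figure D1:**
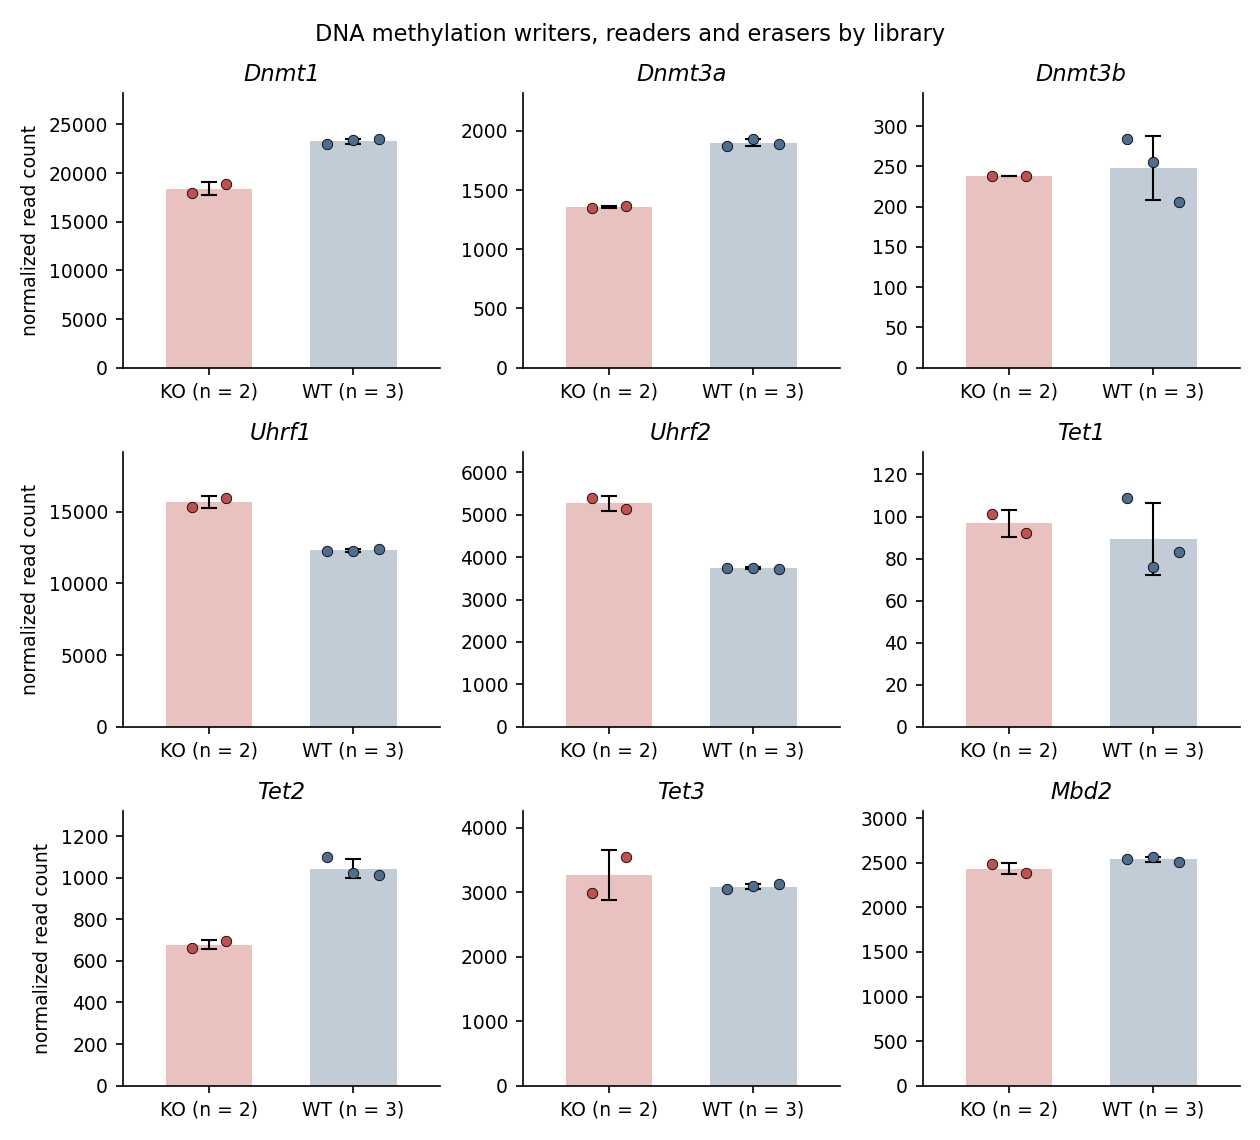
Normalized read counts of the 9 genes in the libraries labelled KO (red, left, n = 2) and WT (blue, right, n = 3), with 1 point a library, bars at the mean and error bars of 1 SD; each panel has its own axis from 0. Uhrf1 and Uhrf2 lie higher in both KO libraries, Dnmt1, Dnmt3a and Tet2 lie lower, and the groups overlap for Dnmt3b, Tet1 and Tet3.

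The maintenance pair moved in opposite directions. Dnmt1 had 17904 and 18877 normalized read counts in KO replicates 1 and 2, against 22987, 23357 and 23479 in WT replicates 1 to 3. Both KO libraries lay below all 3 WT libraries. The log2 fold change was -0.34 ± 0.037 (SE, limma, adjusted p = 5.9e-08), a level 1.27-fold higher in WT. Uhrf1 had 15358 and 15942 in KO, against 12281, 12224 and 12399 in WT. Here both KO libraries lay above all WT libraries, with a log2 fold change of 0.35 ± 0.036 (SE, limma, adjusted p = 2.9e-08). Per transcript length the pair changed places. In RPKM, reads scaled by transcript length and library size, Uhrf1 stood at 114.1 and 116.9 in KO, where Dnmt1 stood at 77.0 and 80.2. In WT Uhrf1 stood at 91.1, 90.5 and 92.0, below Dnmt1 at 98.8, 100.2 and 100.9. The ratio of Uhrf1 to Dnmt1 in RPKM was thus 1.48 and 1.46 in KO, against 0.923, 0.904 and 0.912 in WT. An exact two-sided permutation test of this ratio gave p = 0.1, which is the smallest that 2 against 3 libraries allow, and 0.167 after adjustment over the 10 ratios, shares and sums computed.

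RefSeq, on assembly GRCm38.p6 (mm10), lists several transcription starts for both genes of the pair. E2F factors, which the retinoblastoma protein holds in check, act on promoters of many genes of DNA synthesis, so the promoter windows were searched on both strands for the letters TTTCCCGC, TTTGGCGC, TTTCGCGC and TTTGCCGC, common forms of their binding motif. Windows ran from 250 bases before to 50 after a start, and 8 of the genes had 13 windows searched. Of these, 2 windows held a match, 1 of Dnmt1 and 1 of Uhrf1, while 2.26% of all 32851 windows in the table held one. Both are shown 5′ to 3′ on the gene's strand with the matches in capitals. The part of E2F factors in the levels of the pair was not tested.
Dnmt1, chr9:20952574-20952873, minus strand: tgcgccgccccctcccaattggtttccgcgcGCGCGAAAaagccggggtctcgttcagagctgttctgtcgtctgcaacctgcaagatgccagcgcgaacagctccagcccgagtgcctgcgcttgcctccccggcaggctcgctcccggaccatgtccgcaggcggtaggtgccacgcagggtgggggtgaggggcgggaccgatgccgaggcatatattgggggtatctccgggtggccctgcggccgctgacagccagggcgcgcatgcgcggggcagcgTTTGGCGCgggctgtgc
Uhrf1, chr17:56304063-56304362, plus strand: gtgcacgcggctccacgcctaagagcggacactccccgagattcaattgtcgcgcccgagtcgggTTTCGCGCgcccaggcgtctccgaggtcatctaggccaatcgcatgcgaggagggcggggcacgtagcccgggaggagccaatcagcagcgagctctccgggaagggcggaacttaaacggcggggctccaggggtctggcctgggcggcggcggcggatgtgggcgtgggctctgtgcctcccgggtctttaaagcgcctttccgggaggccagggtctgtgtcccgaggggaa
In Dnmt1 the match GCGCGAAA, which reads TTTCGCGC on the other strand, begins at position -219 from the start, and TTTGGCGC begins at position 34. In Uhrf1 TTTCGCGC begins at position -185. The matches do not overlap one another. They describe these letters in these windows and say nothing of whether a factor was bound. The observed over expected CpG ratio was 0.910 in the Dnmt1 window and 0.959 in that of Uhrf1, beside a median of 0.384 over all windows. The searched letters themselves hold CG, so picking windows by a match favours a high ratio. The other Dnmt1 windows were at 0.101 and 0.5 and the other Uhrf1 window at 0.472. Tet2, with no match, was at 1.167.

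Uhrf2, a relative of UHRF1 that also binds methylated DNA but does not replace it in maintenance, rose as well. Its normalized read counts were 5392 and 5142 in KO replicates 1 and 2, against 3756, 3742 and 3718 in WT. Both KO libraries lay above all WT libraries, and the log2 fold change was 0.49 ± 0.040 (SE, limma, adjusted p = 6.3e-10). Uhrf2 stood at 0.362 and 0.333 of the Uhrf1 level in KO and at 0.316, 0.316 and 0.309 in WT, as a ratio of RPKM (exact permutation p = 0.1, adjusted 0.167). Both KO ratios were above those of WT. It also passed Mbd2 in the order of levels, at 41.3 and 38.9 RPKM in KO and 28.8, 28.6 and 28.5 in WT.

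Genes around both UHRF genes were higher in KO too. Uhrf1 lies on chromosome 17 from 56303337 to 56323486 (GRCm38.p6). The 52 other tested genes within 5 Mb of it had a median log2 fold change of 0.35, and 39 of them lay above 0. Around Uhrf2, on chromosome 19 from 30030430 to 30093726, 45 genes had a median of 0.43, and 34 lay above 0. Whole chromosomes showed it as well, with medians of 0.30 over 643 genes of chromosome 17 and 0.32 over 466 genes of chromosome 19. When each gene's local median was subtracted from the KO libraries, Uhrf1 differed by 0.00097 on the log2 scale (limma, adjusted p = 0.984) and Uhrf2 by 0.063 (limma, adjusted p = 0.197), so neither call was left. On that scale the 9 genes gave 0 higher and 5 lower, with Tet3 and Mbd2 added to the 3 that fell, beside 59.9% of all genes called. Of the 12868 genes fitted this way, 3859 were higher and 3845 lower. With a window of 10 Mb Uhrf2 was called higher, at 0.14 (limma, adjusted p = 0.0051), and with 2 Mb it was called lower, at -0.19 (limma, adjusted p = 0.00047), so its direction relative to its neighbours depends on the window. The part that position has in the rise of the UHRF genes was not tested. Dnmt1, on chromosome 9 from 20907206 to 20959888, had 76 neighbours with a median of -0.10 and a lower quartile of -0.33, close to its own log2 fold change. With the median subtracted Dnmt1 stayed lower, at -0.24 (limma, adjusted p = 1.2e-05).

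**Figure D2:**
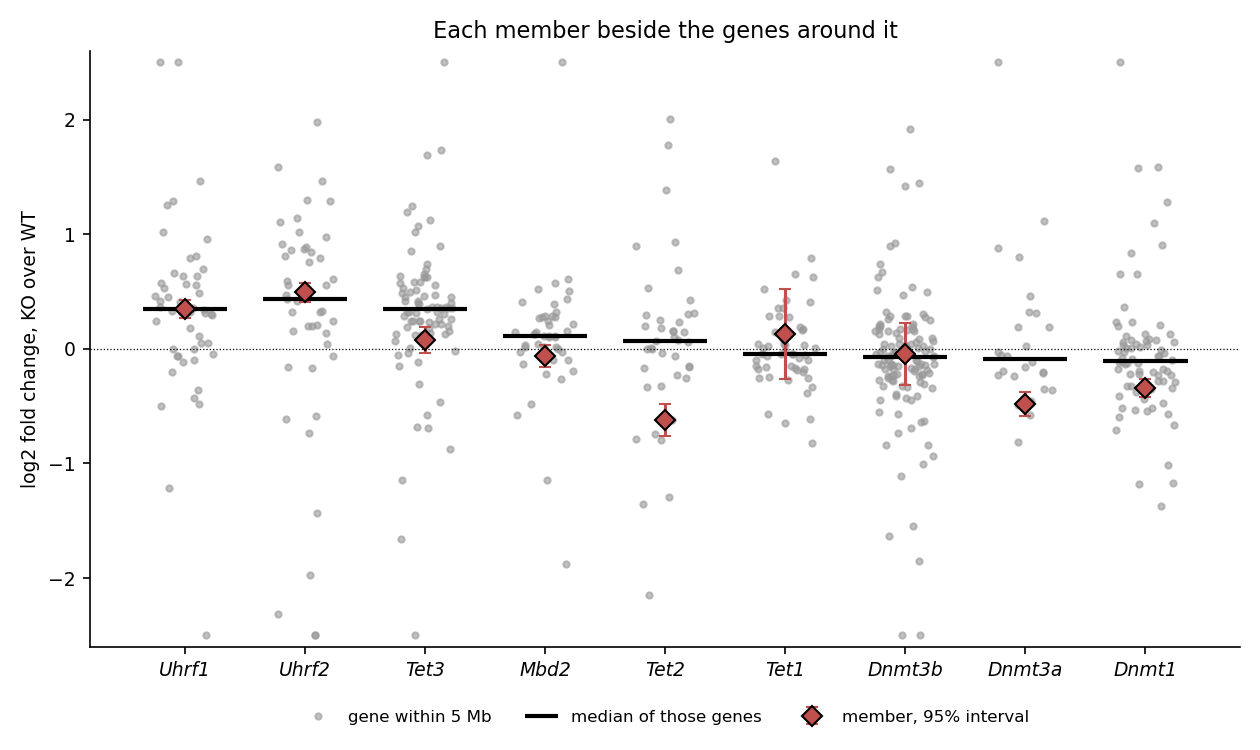
Log2 fold change, KO over WT, of each of the 9 genes (red diamond, with its 95% interval) beside all other tested genes within 5 Mb (grey points, black bar at their median); 12 points beyond 2.5 are drawn at that limit. Uhrf1 and Uhrf2 sit near the medians of their neighbours, 0.35 and 0.43, while Tet2, Dnmt3a and Dnmt1 sit below theirs.

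Of the de novo enzymes, Dnmt3a fell and Dnmt3b was not called. Dnmt3a had 1350 and 1364 normalized read counts in KO, against 1873, 1929 and 1892 in WT. Both KO libraries lay well below the WT libraries, with a log2 fold change of -0.48 ± 0.050 (SE, limma, adjusted p = 2.7e-08), a level 1.40-fold higher in WT. With the local median of -0.091 subtracted it was still lower, at -0.39 (limma, adjusted p = 7.1e-07). Dnmt3b had 237.9 and 238.0 in KO, against 283.7, 255.2 and 205.4 in WT. The KO libraries lay inside the WT range, and the log2 fold change was -0.048 with a 95% interval of -0.32 to 0.22 (limma, adjusted p = 0.762). Without WT replicate 1 its sign turned, at 0.055. The interval holds changes of either sign, so a p above the threshold does not show that Dnmt3b stayed the same. Dnmt3a and Dnmt3b each give several isoforms, some without activity, and a total per gene does not separate them. Dnmt3aos, listed on the Dnmt3a locus over 2952 bases, has no row of that name in the table, and whether reads were counted by strand is not stated in the sources used.

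Dnmt3b stood at 0.402 and 0.398 of the Dnmt3a level in KO and at 0.345, 0.302 and 0.247 in WT, in RPKM. Both KO ratios exceeded those of WT, while the WT ratios spread widely with Dnmt3b (exact permutation p = 0.2, adjusted 0.286). Summed over the 3 methyltransferase genes, RPKM came to 82.3 and 85.4 in KO, against 105.7, 107.0 and 107.4 in WT (exact permutation p = 0.1, adjusted 0.167). Dnmt1 made up 93.7% and 93.9% of that sum in KO and between 93.4% and 94.0% in WT. Its share was thus much alike in all 5 libraries, as Dnmt1 and Dnmt3a were both lower in KO.

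Tet2 fell, and it had the largest log2 fold change in size among the 9 genes. Its normalized read counts were 661.9 and 693.9 in KO, against 1099, 1023 and 1011 in WT. The groups stood far apart, with a log2 fold change of -0.62 ± 0.066 (SE, limma, adjusted p = 4.1e-08), a level 1.54-fold higher in WT. Of all genes tested, 75.3% had a log2 fold change of that size or less. Genes around Tet2, on chromosome 3 from 133463677 to 133545136, had a median log2 fold change of 0.064, opposite in sign to its own, and Tet2 was at -0.69 with that subtracted (limma, adjusted p = 1.4e-08).

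Tet3 was not called, and its KO libraries stood apart from each other. It had 2989 and 3545 normalized read counts in KO replicates 1 and 2, against 3046, 3093 and 3124 in WT. One KO library lay below and the other above all WT libraries, and the coefficient of variation was 12.04% in KO and 1.28% in WT. The log2 fold change was 0.076 with a 95% interval of -0.037 to 0.19 (limma, adjusted p = 0.229). Without KO replicate 1 Tet3 was called higher, at 0.20 (limma, adjusted p = 0.00054), and without KO replicate 2 it was at -0.047 (limma, adjusted p = 0.422). Each of these fits leaves 1 KO library, which is assumed to vary like the WT libraries. Tet3 lies on chromosome 6, where 67 of 81 genes within 5 Mb were above 0, with a median log2 fold change of 0.34. With that subtracted Tet3 was called lower, at -0.27 (limma, adjusted p = 0.00029). It overlaps B230319C09Rik, a gene of low level (18.8 normalized read counts on average), by 6568 bases.

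Tet1 was close to silent, with 101.3 and 92.3 normalized read counts in KO and 108.7, 76.2 and 83.3 in WT. These rest on 92 and 83 reads in KO and 123, 77 and 90 in WT, and the KO libraries lay inside the WT range. The log2 fold change was 0.13 with a 95% interval of -0.26 to 0.52 (limma, adjusted p = 0.563), the widest interval among the 9 genes. Of the summed RPKM of the 3 Tet genes, Tet2 made up 20.4% and 18.6% in KO, against 29.4%, 27.8% and 27.4% in WT. Tet3 made up 77.6% and 79.8% in KO, against 68.7%, 70.8% and 71.2% in WT, and both shares had an exact permutation p of 0.1 (adjusted 0.167). The sum itself was 9.59 and 10.9 RPKM in KO, against 11.02, 10.8 and 10.9 in WT, with overlapping groups (exact permutation p = 0.3, adjusted 0.375).

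Mbd2, which reads the mark, was not called. It had 2482 and 2389 normalized read counts in KO, against 2545, 2563 and 2513 in WT. Both KO libraries lay just below the WT libraries, at a log2 fold change of -0.061 with a 95% interval of -0.15 to 0.033 (limma, adjusted p = 0.243). The median log2 fold change of 45 genes around it on chromosome 18 was 0.11, and relative to them it was lower, at -0.17 (limma, adjusted p = 0.0028).

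Ordered by RPKM, Uhrf1 came first in KO at 115.5 ± 1.99, before Dnmt1 at 78.6 ± 2.22, Uhrf2 at 40.1 ± 1.71 and Mbd2 at 35.5 ± 1.29 (SD, n = 2). In WT Dnmt1 came first at 99.9 ± 1.06, before Uhrf1 at 91.2 ± 0.743, Mbd2 at 37.2 ± 0.343 and Uhrf2 at 28.6 ± 0.148 (SD, n = 3). Below them both groups had the same order. Tet3 was at 8.07 ± 0.899 in KO and 7.66 ± 0.0961 in WT, and Dnmt3a at 3.71 ± 0.00616 in KO and 5.21 ± 0.0720 in WT. Tet2 was at 1.99 ± 0.0484 in KO and 3.08 ± 0.142 in WT, Dnmt3b at 1.48 ± 0.0131 in KO and 1.55 ± 0.248 in WT, and Tet1 at 0.185 ± 0.0139 in KO and 0.172 ± 0.0331 in WT. No gene's range overlapped that of its neighbour in the order within a group. The authors' gene lengths are not given, and they bear on this order but not on the difference of a gene between groups.

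**Figure D3:**
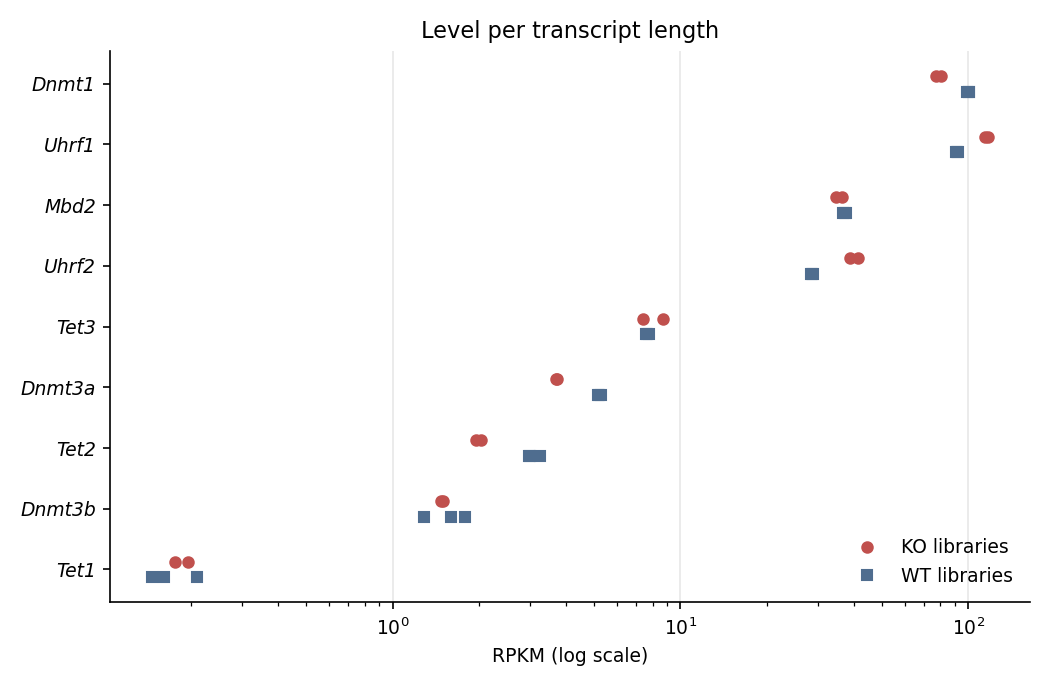
RPKM of the 9 genes on a log axis, with red circles for the KO libraries (n = 2) and blue squares for the WT libraries (n = 3). The pairs Uhrf1 and Dnmt1 and Uhrf2 and Mbd2 change places between KO and WT, and Tet1 lies lowest at 0.185 RPKM in KO and 0.172 in WT.

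With 5 libraries in 2 groups many genes share a pattern. By the root mean square difference of log2 values centred on each gene's mean over the 5 libraries, the gene most like Dnmt1 was Gtf2ird1 (0.0032) and that most like Uhrf1 was Tnpo2 (0.0063). Ccdc6 was nearest to Dnmt3a (0.010), Ngfrap1 to Uhrf2 (0.015) and Ccdc109a to Tet2 (0.014). Sp2 was nearest to Tet3 (0.019) and Pdxdc1 to Mbd2 (0.0069). For Dnmt3b and Tet1 the nearest, Timm17b and Gar1, were farther off, at 0.084 and 0.095. Only genes with at least the median mean level, 992.8 normalized read counts, were compared. Dnmt3b and Tet1 lie well below that level and vary more between WT libraries, with coefficients of variation of 15.98% and 19.15%. Their larger distances thus follow in part from the choice of genes compared. Of 6531 genes compared, 426 lay within 0.05 of Dnmt1 and 388 within 0.05 of Uhrf1, so the nearest gene is one of many.

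Proteins that work with these enzymes were grouped by role. The counts called in each list below stand beside 32.6% of all genes tested higher, 32.6% lower and 65.3% called either way. Of 9 maintenance partners, 8 were tested, with 3 higher and 1 lower in KO and a median log2 fold change of 0.013. Zfp57, a zinc finger protein that keeps methylation at imprinted loci, averaged 717.5 ± 42.8 normalized read counts in KO and 409.6 ± 7.05 in WT (SD, n = 2 and 3), a log2 fold change of 0.81 (limma, adjusted p = 1.8e-08). Hells, a remodeller needed for methylation of repeats, rose by 0.32, but its neighbours on chromosome 19 had a median of 0.45, and with that subtracted it was called lower, at -0.14 (limma, adjusted p = 0.024). Cdca7l, a relative of the HELLS partner CDCA7, rose by 0.26. The replication clamp gene Pcna and the UHRF1 and DNMT1 deubiquitinase gene Usp7 were at 0.051 and -0.025 (limma, adjusted p = 0.273 and 0.596). Dppa3, which keeps UHRF1 off chromatin in germ cells and early embryos, was at 0 in all libraries. With local medians subtracted 5 of the partners were higher. The number lower was 0 without KO replicate 1, WT replicate 1 or WT replicate 3, and 2 without KO replicate 2.

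Of the partners and guides of de novo methylation, 9 of 10 were tested, with 3 higher and 4 lower and a median of -0.14. Ehmt2, for a histone H3 lysine methyltransferase, and Daxx, a histone chaperone gene, rose by 0.41 and 0.43 (limma, adjusted p = 6.4e-09 and 8.9e-07), both on chromosome 17 among genes with a median of 0.26. Nsd1, whose histone mark draws DNMT3A, fell, at -0.26 (limma, adjusted p = 8.4e-06). Dnmt3l, a cofactor of the de novo enzymes in germ cells, was at 0 in both KO libraries and in WT replicates 2 and 3, and at 1.77 normalized read counts in WT replicate 1.

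Of the other methyl-CpG readers and their relatives, 6 were lower and 2 higher of 9 tested, with a median of -0.23, beside 32.6% of all genes lower and 32.6% higher. With local medians subtracted, 4 were lower at each of the 3 windows used. Zbtb4, a zinc finger reader gene, fell by 0.76 on the log2 scale and Mbd6 by 0.45. With local medians subtracted Zbtb4 was at -0.78. Mbd6 had neighbours with a median of -0.32, and with that subtracted it was at -0.13 and not called (limma, adjusted p = 0.064). With 2 Mb Mbd6 was called lower, at -0.14 (limma, adjusted p = 0.045), and with 10 Mb it was not called. Mbd3, whose protein takes the place of MBD2 in NuRD and binds methylated DNA poorly, was at -0.23 (limma, adjusted p = 0.00013), and at 0.056 with its local median of -0.28 subtracted. The number higher was 1 without KO replicate 2. In the NuRD complex, 6 of 12 genes were higher and 4 lower, with a median of 0.16. Gatad2a, for a subunit that bridges MBD proteins to the remodeller, had 14241 and 14789 normalized read counts in KO, against 8438, 8118 and 8269 in WT, a log2 fold change of 0.81 (limma, adjusted p = 3.6e-14) among neighbours with a median of 0.57. The remodeller gene Chd3 rose by 0.36, and Mta1, for another subunit, fell, at -0.44. With local medians subtracted, 3 genes of this complex were higher.

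Genes for partners of TET enzymes and for the supply of their cosubstrate 2-oxoglutarate were split, with 4 higher and 5 lower of 11 tested and a median of -0.065. Idh1, the cytosolic enzyme gene that makes 2-oxoglutarate, averaged 2923 ± 133 normalized read counts in KO and 2081 ± 82.8 in WT (SD, n = 2 and 3), a log2 fold change of 0.49 (limma, adjusted p = 1.7e-08). Its mitochondrial counterpart Idh2 fell, at -0.30 (limma, adjusted p = 4.3e-07), among neighbours with a median of -0.21. With that subtracted Idh2 was at -0.087 (limma, adjusted p = 0.049) and Idh1 at 0.54. With windows of 2 and 10 Mb Idh2 was at -0.067 and -0.13, and it was called only with 10 Mb. Fh1, for fumarase, whose substrate inhibits TET enzymes, rose by 0.28. In base excision, which takes out oxidized methylcytosine, 6 of 13 tested genes were higher and 2 lower, with a median of 0.27. Polb, for the repair polymerase, rose by 0.74, among neighbours with a median of 0.46. Lig3, a ligase gene, rose by 0.30 and its scaffold partner gene Xrcc1 fell, at -0.39. Tdg, the glycosylase gene that acts next after TET, was listed at 13.2 and 14.5 normalized read counts in KO and 10.6, 14.8 and 8.33 in WT; it has near-identical pseudogenes that can share its reads, so its level is uncertain.

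The methyl donor cycle makes S-adenosylmethionine, the substrate of the DNMT enzymes, and clears the product that inhibits them. Of 10 genes tested, 4 were higher and 3 lower, with a median of -0.010. Mat2a, for the synthetase, had 21926 and 20557 normalized read counts in KO, against 15712, 16691 and 15567 in WT, a log2 fold change of 0.41 (limma, adjusted p = 1.3e-08). Its neighbours on chromosome 6 had a median of 0.34, and with that subtracted it was at 0.066 (limma, adjusted p = 0.168). Ahcy, for the enzyme that removes S-adenosylhomocysteine, rose by 0.30 (limma, adjusted p = 1.6e-06), with neighbours at -0.070. Mtr, for methionine synthase, fell, at -0.41 (limma, adjusted p = 4.4e-07).

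**Figure D4:**
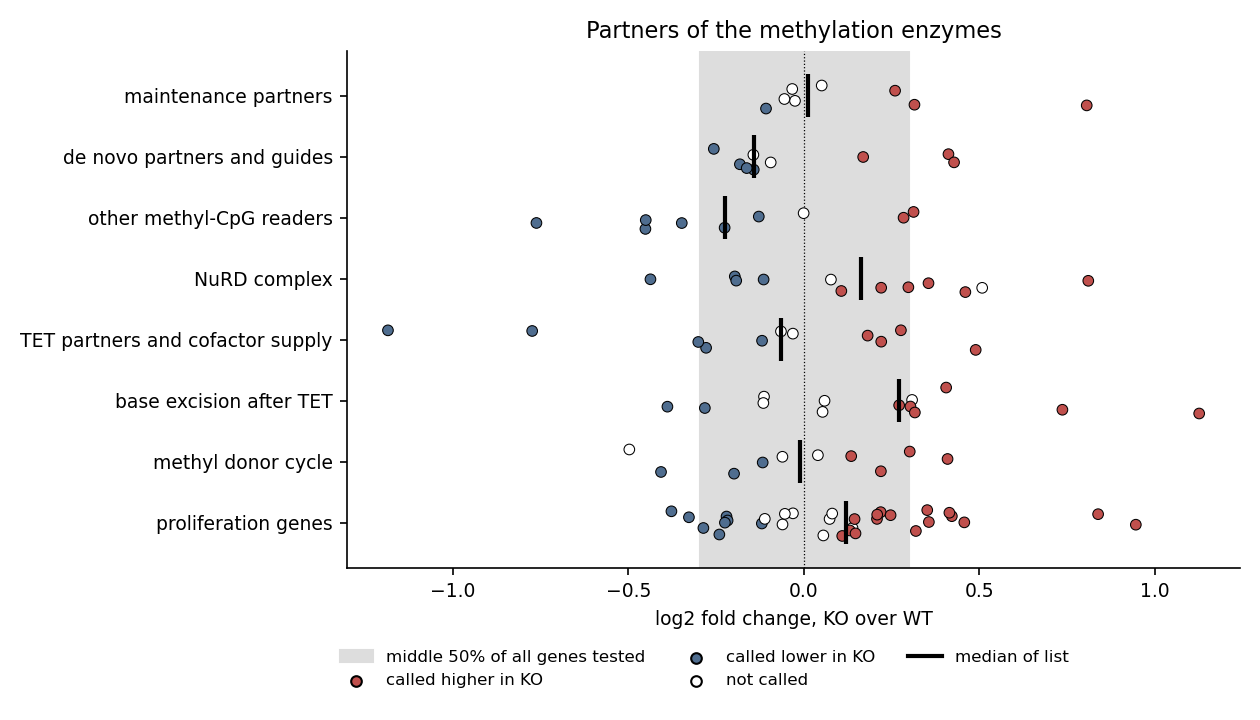
Log2 fold change, KO over WT, of genes that work with the methylation enzymes, 1 point a tested gene (red called higher in KO, blue called lower, white not called), with a black bar at the median of each list; the grey band holds the middle 50% of all genes tested, from -0.30 to 0.30. Each list shown has genes called in both directions, and the medians run from -0.23 for the methyl-CpG readers to 0.27 for base excision.

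DNMT1 and UHRF1 are made mostly by dividing cells, so genes of proliferation are given beside them. Of 32, 16 were higher and 8 lower in KO, beside 32.6% of all genes tested higher and 32.6% lower. Their median was 0.12, and their summed level was 270363 to 270802 normalized read counts in KO and 250631 to 255655 in WT. Mki67, a marker of cycling cells, rose by 0.46 among neighbours with a median of 0.43. Cdt1 and Gins2, of replication start, rose by 0.95 and 0.84, on a stretch of chromosome 8 with medians of 1.01 and 0.96. With those subtracted, these 3 were at 0.029, -0.063 and -0.12 and none was called (limma, adjusted p = 0.552, 0.297 and 0.15). With windows of 2 and 10 Mb Mki67 was called higher, at 0.14 and 0.15. Gins2 was called lower with 2 Mb, at -0.18 (limma, adjusted p = 0.042), and not with 10 Mb, and Cdt1 was called with neither. The part of cell division in the level of Dnmt1 was not tested.

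Germline genes, many of which methylation is known to keep silent in other tissues, gave little signal in either group. Of 25, 4 passed the filter on low values and 9 were at 0 in all libraries. The summed level of the 25 was 372.2 to 414.8 normalized read counts in KO and 256.3 to 327.5 in WT. Of the 4, 2 were higher and 2 lower in KO, beside 32.6% of all genes tested each way. Tdrkh, of the piRNA pathway, had 141.0 and 155.7 in KO, against 42.4, 50.5 and 53.7 in WT, a log2 fold change of 1.59 (limma, adjusted p = 3.2e-07). Brdt and Sycp3, of sperm chromatin and the meiotic chromosome axis, fell, at -0.92 and -1.03 (limma, adjusted p = 0.00093 and 0.0019). The number higher was 1 without KO replicate 2 or without WT replicate 1. DNA methylation itself was not measured in these libraries.

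Lists of markers of other cells are given for comparison. Of 13 genes of embryonic stem and germ cells, where Tet1 and Dnmt3b are high, 7 were at 0 in all libraries, Pou5f1 among them, and Nanog had at most 8.81 normalized read counts, in KO. The 2 that passed the filter, Klf4 and Sox2, fell, at -1.78 and -0.50, and made nearly all of the summed level of 4502 to 4910 in KO and 12091 to 12348 in WT. Of 7 epithelial markers 1 was tested, Epcam, and the sums were 35.2 to 37.8 in KO and 14.1 to 15.8 in WT. The 7 blood markers summed to 278.6 to 308.0 in KO and 284.9 to 304.4 in WT, with most of each sum from Cd14. Of these, 3 were tested and 1 was higher, Csf1r, beside 32.6% of all genes tested higher. Csf1r had 27.53 and 37.81 normalized read counts in KO, against 3.54, 8.90 and 12.03 in WT. Its log2 fold change was 1.99 (limma, adjusted p = 0.00075). Of 6 endothelial markers 5 were tested, and the sums were 3243 to 3445 in KO and 1176 to 1237 in WT, nearly all from Flt1, a VEGF receptor gene called higher at 1.47 (limma, adjusted p = 2.7e-16). Kdr, the other main VEGF receptor gene of endothelium, had 40.7 and 35.6 normalized read counts in KO, against 0, 2.97 and 1.85 in WT. Vwf, for von Willebrand factor, had 14.3 and 12.2 in KO, against 2.65, 0.989 and 2.78 in WT. Cdh5 and Tek were not called, and Pecam1 had 1.10 and 3.34 in KO and from 0.925 to 2.65 in WT. Of 7 neural markers 2 were tested, Tubb3, which fell, at -0.80 (limma, adjusted p = 1.5e-09), and Syp, with sums of 556.1 to 567.1 in KO and 923.0 to 1009 in WT. Kdr, Vwf, Epcam and Syp reached 10 normalized read counts only in the KO libraries and passed the filter through them, so their calls as higher carry no weight, and with either KO library left out they were not tested. The part of other cells in the levels of the methylation enzymes was not tested.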

How the data were processed

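Poly-T selected RNA went into Nextera XT libraries read by an Illumina NextSeq, per the labels' protocols. STAR, DESeq2 and mm10 appear in the submitters' processing notes, with no counter or annotation stated in the sources used. The deposited signal values are, from the values themselves, whole reads that the authors scaled by library (100% whole within 0.1 reads). The authors also deposited RPKM, log2 fold changes, Wald scores and p-values, per the file headers.

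Samples were grouped by title. limma 3.58.1 (R 4.3.3, trended prior, genotype as the one factor) was run on log2(value + 1) for 13062 genes that reached 10 in at least 2 libraries, and was checked on simulated counts. Fold changes are on that scale, which understates those of low genes. The trended prior draws the spread of each gene in part from all genes tested. All 9 genes passed the filter. Neighbours are tested genes within 5 Mb (RefSeq GRCm38.p6). Alternatives, edgeR 4.0.16 and DESeq2 1.42.0 among them, are given in the closing section; these tools used the recovered reads of 4 libraries, since the step of WT replicate 2, 0.989, is too near 1 to check. The genes and lists were chosen with earlier results of these data known. The text names all 9 genes, up to 3 called members of each list with the smallest adjusted p, 14 genes fixed by name, of which 1 is not reported here, and each gene's nearest in pattern; Lum, Pecam1, Cdh5, Tek and genes that overlap one of the 9 were added after values were seen.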

Additional observations from a re-analysis of the deposited data

How the results depend on the processing

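The calls of Dnmt1, Dnmt3a and Tet2 kept their direction and their side of the threshold under every alternative run, with log2 fold changes of -0.38 to -0.23, -0.49 to -0.39 and -0.77 to -0.58. Those of Uhrf1 and Uhrf2 did so under all but the removal of local shifts. With local shifts removed, the 9 genes gave 0 higher and 5 lower, beside 3859 higher and 3845 lower of 12868 genes. With windows of 2 and 10 Mb, chosen after seeing the data, they gave 0 and 1 higher and 5 and 5 lower. Beside these stand 3596 higher and 3538 lower of 11806 genes with 2 Mb, and 3914 and 3864 of 12959 with 10 Mb. The 5 with 2 Mb hold Uhrf2 and not Mbd2, which had fewer than 10 neighbours there and was not fitted. Tet3 reversed to -0.27, -0.28 and -0.23 with windows of 5, 2 and 10 Mb, and Uhrf2 to -0.19 with 2 Mb. Of the partner genes, Hells was at -0.14, -0.020 and -0.19, Mbd3 at 0.056, 0.092 and 0.063 and Gins2 at -0.12, -0.18 and -0.014 in that order, Cdt1 at -0.063 and -0.071 with 5 and 2 Mb, and Usp7 at 0.094 with 2 Mb. A gene moves with its local median by construction; the cause of the local shifts was not tested.

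The replicate number as a block gave 3958 genes higher and 3947 lower, and 2 and 3 of the 9 genes. Deviations of same-numbered libraries had correlations of -0.0097 and -0.0050. The 2 KO libraries deviate from their mean by opposite amounts, so these values cannot settle whether the numbers pair libraries. Leaving out each library in turn gave 3767 to 4026 genes higher and 3870 to 4128 lower, beside 4259 and 4264, and left the 5 called genes called. edgeR gave 4147 and 3956 and DESeq2 3537 and 3428 on recovered reads of 4 libraries. About 100 reads per library limit what can be seen for Tet1.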
